A study of Mus musculus with 6 samples.

Results

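The urokinase system, thrombospondin 1, fibronectin and matrix proteases were followed in neutrophils of mice with bile duct injury through 9 genes: Plau, Plaur, Thbs1, Fn1, Mmp12, Mmp13, Mmp14, Mmp19 and Timp1. These were chosen by symbol from the 53090 gene rows of the deposited tables, and each symbol had 1 row. All mice had eaten for 1 week a diet with DDC (3,5-diethoxycarbonyl-1,4-dihydrocollidine), which causes bile duct injury, and no group without DDC was analysed here. The liver group comprised 3 libraries of cells pulled out with magnetic beads against Ly6G, a surface protein of mouse neutrophils, after a Percoll density gradient of liver suspension. The blood group comprised 3 libraries of Ly6G-selected cells prepared after lysis of red cells. Strain, age, sex and genotype are not given in the labels used here. The gradient was used for liver and the lysis for blood, so preparation and organ cannot be told apart.

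Urokinase, encoded by Plau, is a serine protease that cuts plasminogen into plasmin, and its receptor, encoded by Plaur, holds it at the cell surface. Plasmin and the matrix metalloproteinases digest extracellular matrix, and tissue inhibitors such as the product of Timp1 block the metalloproteinases. Fibronectin and thrombospondin 1 are matrix proteins that cells bind through integrins, and thrombospondin 1 also binds CD47 and CD36. Neutrophils carry preformed metalloproteinases in their granules, chiefly the products of Mmp8, Mmp9 and Mmp25.

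In the Ly6G-selected cells of liver, 6 of the 9 genes were called higher than in those of blood: Plau, Plaur, Thbs1, Fn1, Mmp12 and Mmp14. Thbs1 had the highest mean CPM of the 9 in liver and in blood, where CPM are counts scaled to depth. Per kilobase of the longest protein-coding transcript Thbs1 led in liver and Plaur in blood. Mmp19 did not pass the test, and Mmp13 and Timp1 had too few counts to be tested. The threshold was an adjusted p of 0.05 in edgeR's quasi-likelihood test of liver against blood over 13458 genes. Of these, 17.4% were called higher and 14.2% lower. The 9 genes and the gene lists below were chosen with earlier results of these data known. Setting their calls against these shares therefore does not test whether they stand out. No tested member had a negative log2 fold change by edgeR, DESeq2 or limma-voom. Of the 7 members that passed the filter on low counts, Plau, Mmp12 and Mmp14 had at most 11 counts over the 3 blood libraries and passed through their liver counts. Among 378 tested genes with so few blood counts, 88.4% were called higher, so a call carries little by itself for these 3 genes.

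Ly6g and the calgranulin genes S100a8 and S100a9 were detected in every library, with S100a9 at 1724 to 2749 CPM in the liver libraries and 4168 to 10694 CPM in the blood libraries. Library sizes behind the CPM were adjusted by the TMM method. Of 15 neutrophil markers, 11 were called lower in liver. Markers of other cells were present as well. Called higher in liver were 6 of 13 tested Kupffer cell and macrophage markers, 6 of 10 monocyte markers, 6 of 10 dendritic cell markers, 5 of 6 endothelial markers and 7 of 7 hepatocyte markers, and called lower were 5 of 9 platelet markers. Liver 3 had the highest sum of Kupffer cell, hepatocyte and monocyte markers. Among the blood libraries, blood 1 had the highest sums of platelet and erythroid markers. It also had the highest blood sums of Kupffer cell and macrophage, monocyte, dendritic cell, hepatocyte and endothelial markers. Total counts ran from 13778681 to 17579669 per liver library and from 13054673 to 14403803 per blood library, at which 3 counts correspond to 0.181 to 0.196 CPM in liver and 0.201 to 0.263 CPM in blood. Such floors, and the counting intervals below, cover counting error only. The labels give 3 mice but do not tie each library to a mouse, so the p-values reflect only how these samples spread, which may be technical. In bulk samples, fewer cells of a type and less RNA per cell cannot be told apart.

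Promoter sequence for 5 of the 9 members was matched by symbol in RefSeq windows (GRCm38.p6) that span 250 bases before to 50 bases after an annotated start. Of these, Plaur and Mmp12 were called higher in liver and Mmp13 had 5 counts in the liver group and 0 in the blood group, yet all 3 hold the same short motif, which is why they are shown. The motif is TGANTCA, the core bound by AP-1 factors. It reads the same on both strands and occurs in 7.81% of all 32851 windows. Capitals mark this motif and, in Mmp13, the TATA box letters TATAAA, which occur on either strand in 13.6% of all windows. Each line gives the 250 bases before the start, 5′ to 3′.
Plaur (chr7:24462233-24462482, plus strand): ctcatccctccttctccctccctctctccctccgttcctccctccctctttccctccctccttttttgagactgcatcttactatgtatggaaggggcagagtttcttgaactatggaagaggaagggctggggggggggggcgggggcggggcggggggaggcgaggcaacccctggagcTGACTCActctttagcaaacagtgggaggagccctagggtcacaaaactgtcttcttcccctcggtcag
Mmp12 (chr9:7347124-7347373, plus strand): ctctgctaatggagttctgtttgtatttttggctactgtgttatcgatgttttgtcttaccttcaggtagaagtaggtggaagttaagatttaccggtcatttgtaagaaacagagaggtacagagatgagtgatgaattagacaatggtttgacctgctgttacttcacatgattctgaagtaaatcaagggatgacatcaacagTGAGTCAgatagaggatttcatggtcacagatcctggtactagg
Mmp13 (chr9:7272264-7272513, plus strand): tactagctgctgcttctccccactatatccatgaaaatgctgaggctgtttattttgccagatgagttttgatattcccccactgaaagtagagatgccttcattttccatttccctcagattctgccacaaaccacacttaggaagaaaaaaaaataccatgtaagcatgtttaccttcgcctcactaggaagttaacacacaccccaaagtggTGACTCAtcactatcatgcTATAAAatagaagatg
The first base of the AP-1 match stands at position -69 from the start in Plaur, -44 in Mmp12 and -35 in Mmp13. The Mmp12 stretch lies upstream of a shorter transcript and within an intron of longer annotated ones. The NF-kB consensus, searched on both strands, occurs in 8.46% of all windows and among the members only in a window farther upstream of Mmp12, at position -129. A narrower NF-kB pattern that was searched first, with fixed letters where the consensus allows either of a pair, occurs in 1.47% of all windows and in none of the member windows. The consensus took its place after that result was known, so the Mmp12 match depends on the pattern chosen. The windows of Mmp14 and Timp1 held neither the AP-1 nor the NF-kB letters. A match is a string of letters and was not tested for binding.

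Plau encodes the protease of the urokinase system (chromosome 14, 20836660 to 20843385, GRCm38, plus strand). It had 23.2, 21.1 and 11.6 CPM in liver 1, 2 and 3, against 0.216, 0.0876 and 0.269 CPM in blood 1, 2 and 3. Every liver library was above every blood library, as was so for 25.8% of all tested genes. The blood values rest on 3, 1 and 4 counts, which leaves little room for overlap. The log2 fold change was 6.51 ± 0.51 (SE, adjusted p = 9.4e-05, edgeR), and the ratio of summed counts on scaled library sizes was 93.9, with a 95% exact counting interval of 47.5 to 218. The 14 Kupffer cell and macrophage markers summed to 843, 549 and 1064 CPM in liver 1, 2 and 3. They summed to 530.5, 412 and 328 CPM in blood 1, 2 and 3. Without Csf1r, the most abundant of them, the sums were 442, 257 and 676 CPM in liver and 190.4, 61.2 and 41.8 CPM in blood. The marker sums were highest in liver 3, where Plau was lowest among the liver libraries. The part of these cells in the Plau difference was not tested.

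The receptor gene Plaur (chromosome 7, 24462484 to 24475968, plus strand) was abundant in both groups, with a smaller log2 fold change. It had 544, 413 and 465 CPM in liver 1, 2 and 3, against 324, 296 and 291 CPM in blood 1, 2 and 3. The groups did not overlap, as was so for 25.8% of all tested genes in this direction. The mean was 474 ± 65.6 CPM in the liver libraries, against 304 ± 17.9 CPM in the blood libraries (SD, n = 3 each), or 1.56-fold higher in liver, with a log2 fold change of 0.64 ± 0.19 (SE, adjusted p = 0.029, edgeR). This call was lost without liver 1 (adjusted p = 0.11), blood 1 (0.083), blood 2 (0.081) or blood 3 (0.12), or without liver 3 and blood 1 together (0.11). Per kilobase of the longest annotated coding transcript, Plaur exceeded Plau 30.5 to 62.1 times in the liver libraries and 1685 to 5252 times in the blood libraries.

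**Figure D1:**
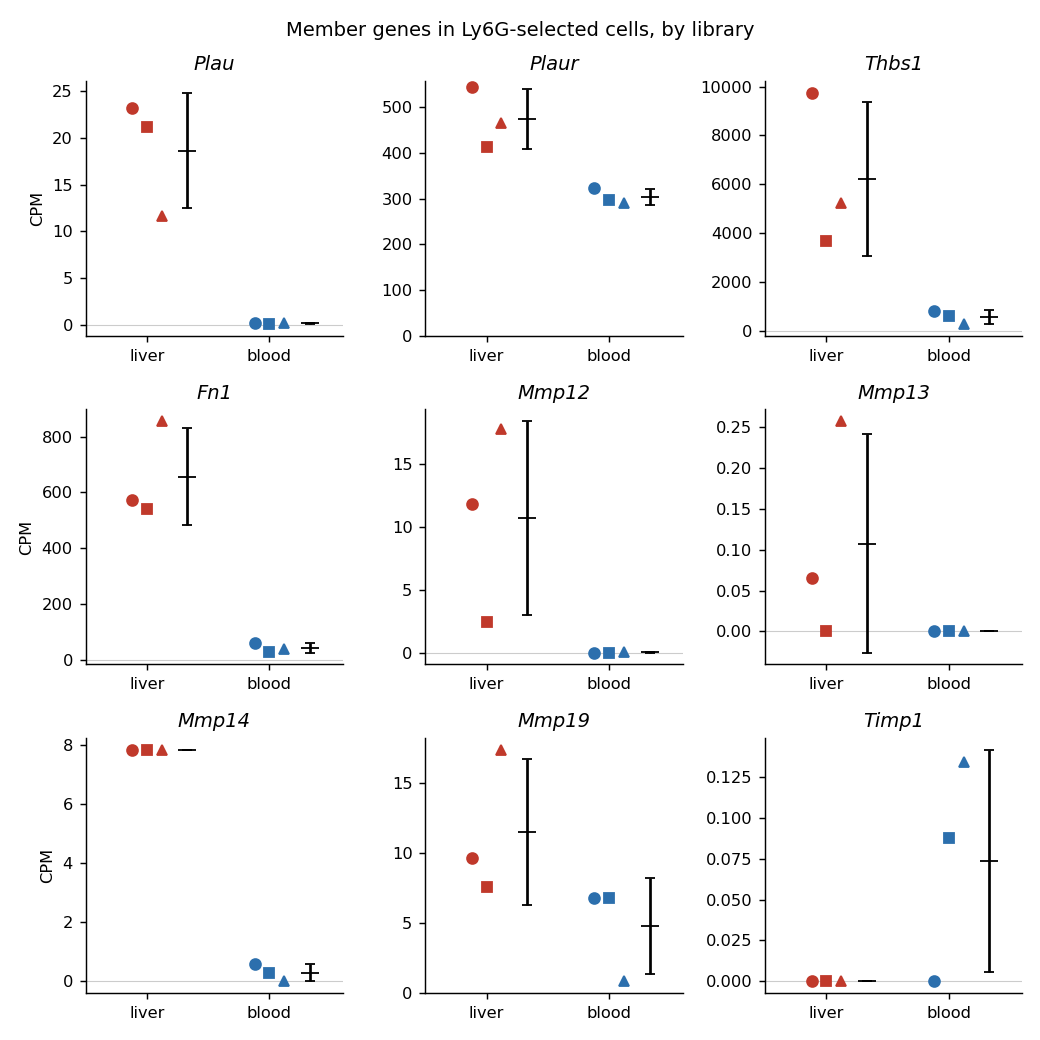
CPM of the 9 genes in each library, 1 panel per gene with its own linear axis; circles, squares and triangles are libraries 1, 2 and 3 of liver (left, red) and blood (right, blue), and black bars are mean ± SD of 3 libraries. Plau, Plaur, Thbs1, Fn1, Mmp12, Mmp14 and Mmp19 were higher in every liver library than in any blood library. The same held for 25.8% of all tested genes. Plau, Mmp12 and Mmp14 had at most 11 counts over the blood libraries, which left little room for overlap. Timp1 stayed at 0 in liver and Mmp13 at 0 in blood.

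Other genes of the plasminogen system came from a list of 21 that includes Plau and Plaur. Of the 19 others, 10 were tested, of which 3 were called higher and 2 lower, against 17.4% and 14.2% of all tested genes. Their median log2 fold change was 0.91, against 0.04 over all genes tested. Lrp1, an endocytic receptor that clears proteases and their complexes from the cell surface, had 616, 362 and 1034 CPM in liver 1, 2 and 3, against 115, 41.8 and 41.0 CPM in blood 1, 2 and 3. Its log2 fold change was 3.35 ± 0.56 (SE, adjusted p = 0.0044, edgeR), and 3.97 without blood 1. The order of its liver values matches that of the Kupffer cell marker Clec4f, at 17, 5.12 and 59.8 CPM. The monocyte marker F13a1 took this order too, and the part of either cell type in the Lrp1 difference was not tested. Serpinf2, encoding the plasmin inhibitor alpha 2-antiplasmin, rose by 2.23 ± 0.74 (SE, adjusted p = 0.045, edgeR), at 0.9 to 2.11 CPM in the liver libraries and 0.134 to 0.503 CPM in the blood libraries, a call lost under 10 of 15 alternatives.

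Of the genes called lower, Anxa2 encodes annexin A2, a surface protein that binds plasminogen. It had 233, 368 and 192 CPM in liver 1, 2 and 3, against 537, 1154 and 582 CPM in blood 1, 2 and 3, with a log2 fold change of -1.52 ± 0.35 (SE, adjusted p = 0.011, edgeR). F12, encoding coagulation factor XII, had a log2 fold change of -2.07 ± 0.52 (SE, adjusted p = 0.015, edgeR), lost without blood 3 (0.058) or without liver 3 and blood 1 together (0.079). S100a10, the partner of annexin A2, and the plasminogen receptor gene Plgrkt did not pass the test, with log2 fold changes of 1.20 and 0.62 (adjusted p = 0.10 and 0.085, edgeR). Plg, encoding plasminogen itself, had 52 counts in the liver group and 0 in the blood group, was not tested, and was highest in liver 3 at 2.44 CPM.

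Thbs1 (chromosome 2, 118111876 to 118127133, plus strand) encodes thrombospondin 1, a secreted matrix glycoprotein also stored in platelets. It had 9754, 3696 and 5233 CPM in liver 1, 2 and 3, against 819, 625 and 267 CPM in blood 1, 2 and 3. The lowest liver value was above the highest blood value, and the mean was 6227 ± 3149 CPM in the liver libraries, against 571 ± 280 CPM in the blood libraries (SD, n = 3 each). The log2 fold change was 3.45 ± 0.51 (SE, adjusted p = 0.0019, edgeR) and stayed between 2.96, without liver 1, and 3.88, without liver 3 and blood 1 together, over all 16 alternatives.

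Per kilobase, Thbs1 ranked 11, 66 and 21 among 11008 ranked genes in liver 1, 2 and 3, against 407, 612 and 1174 in blood 1, 2 and 3. Its level per kilobase was 2.30 to 4.62 times that of Plaur in the liver libraries and 0.237 to 0.651 times in the blood libraries on the length of the longest protein-coding transcript. On the length of all annotated exons joined, chosen after seeing the data, the ratio was 3.85 to 7.73 in the liver libraries, against 1.09, 0.910 and 0.396 in blood 1, 2 and 3, so which of the pair leads in blood 1 depends on the length used. In plain CPM, Thbs1 was above Plaur in blood 1 and 2 and below it in blood 3. Platelet markers moved the other way. The sum over 11 of them was 18.5 to 30.5 CPM in liver and 56.7 to 371 CPM in blood. Itga2b, which encodes a platelet integrin subunit, had 1.57, 2.59 and 4.25 CPM in liver 1, 2 and 3, against 89.4, 26.9 and 10.5 CPM in blood 1, 2 and 3. Among the blood libraries alone, Thbs1 took the same order as Itga2b, and the part of platelet RNA in the blood level of Thbs1 was not tested.

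Fn1 (chromosome 1, 71585520 to 71653200, minus strand) encodes fibronectin, the matrix protein bound by integrin alpha 5 beta 1. It had 573, 542 and 856 CPM in liver 1, 2 and 3, against 60.6, 26.2 and 39.2 CPM in blood 1, 2 and 3. All liver values lay far above all blood values, with a 15.6-fold difference of the means and a log2 fold change of 3.97 ± 0.35 (SE, adjusted p = 0.00017, edgeR). Over the 16 alternatives it ran from 3.69 to 4.29.

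Of 10 monocyte markers, 6 were called higher in liver with Fn1, while Ly6c2, Spn, Cd300e and Ace were not called. F13a1, encoding the A chain of coagulation factor XIII, had 85.2, 78.6 and 106 CPM in liver 1, 2 and 3. It had 22.6, 7.62 and 8.32 CPM in blood 1, 2 and 3, and so took the same order as Fn1 within each group. Among the liver libraries the Kupffer cell marker Clec4f took this order too. Ccr2, the monocyte chemokine receptor gene, had 78.0, 78.4 and 96.1 CPM in liver against 10.6, 6.13 and 2.22 CPM in blood. Ly6c2, a surface antigen gene of classical monocytes, had a mean of 13.9 ± 2.34 CPM over the liver libraries, against 17.6 ± 2.47 CPM over the blood libraries (SD, n = 3 each), with a log2 fold change of -0.34 (adjusted p = 0.34, edgeR). The 10 monocyte markers summed to 2397 to 3030 CPM in liver and 268 to 651 CPM in blood, most of it Nr4a1, and without Nr4a1 the sums were 407 to 678 CPM and 131 to 288 CPM. Per kilobase, Fn1 was 3.20 to 3.83 times F13a1 in the liver libraries and 1.27 to 2.24 times in the blood libraries, while it was 4.76 to 6.14 times Ccr2 in the liver libraries and 2.94 to 12.2 times in the blood libraries, where the groups overlap. Hepatocyte markers, of which all 7 tested were called higher in liver, summed to 271 to 476 CPM in liver and 108 to 151 CPM in blood. Kupffer cell and macrophage markers summed to 549 to 1064 CPM in liver and 328 to 530.5 CPM in blood. The part of monocytes, hepatocytes or macrophages in the Fn1 difference was not tested. Markers of fibroblasts and stellate cells, another source of fibronectin, summed to 16.1 to 22.1 CPM in liver and 18.9 to 22.4 CPM in blood. Most of this was Acta2, so the sum says little about the other markers. Col1a1 had 1.96, 4.34 and 4.63 CPM in liver 1, 2 and 3, against 1.01, 0 and 1.28 CPM in blood 1, 2 and 3. Col1a2 and Col3a1 stayed at or below 0.602 CPM in liver and at 0 in blood. Only 2 of the 12 markers were tested, and neither was called. The part of fibroblasts and stellate cells in the Fn1 difference was not tested.

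**Figure D2:**
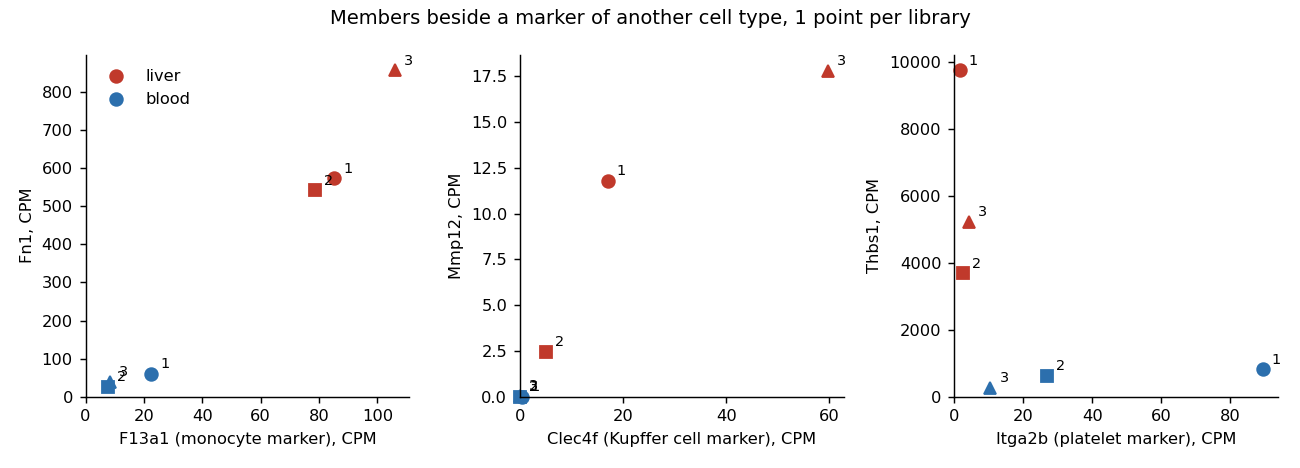
CPM of Fn1, Mmp12 and Thbs1 (vertical axes) against CPM of F13a1, Clec4f and Itga2b, markers of monocytes, Kupffer cells and platelets (horizontal axes), 1 point per library with its number, liver in red and blood in blue. Fn1, Mmp12, F13a1 and Clec4f all take the same order among the liver libraries, so that order is not particular to either pair. Thbs1 is high in the liver libraries, where Itga2b is 1.57 to 4.25 CPM.

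A list of 22 thrombospondins, fibronectin and their receptors holds 20 genes besides Thbs1 and Fn1, of which 14 were tested. Of these, 3 were called higher and 1 lower, against 17.4% and 14.2% of all tested genes. Their median log2 fold change was 0.16. Sdc1, encoding the proteoglycan syndecan 1, had 2.48, 2.29 and 2.57 CPM in liver 1, 2 and 3, against 0.0719, 0.175 and 0.134 CPM in blood 1, 2 and 3, with only 5 counts over the blood libraries. It rose by 4.2 ± 0.69 (SE, adjusted p = 0.0023, edgeR). Itgb5, an integrin subunit gene, rose by 2.34 ± 0.52 (SE, adjusted p = 0.012, edgeR), or 3.11 without blood 1, and its call was lost without blood 2 (0.053).

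Itgb1, the beta chain of the fibronectin receptor, averaged 146 ± 13.9 CPM in the liver libraries, against 65.4 ± 21.2 CPM in the blood libraries (SD, n = 3 each), with an adjusted p of 0.0084 by edgeR. Its partner Itga5 had a log2 fold change of -0.01 ± 0.21 (SE) and did not pass the test. Itga4, another alpha chain that binds fibronectin, was called lower, at 562 ± 103 CPM in the liver libraries, against 1044 ± 91.9 CPM in the blood libraries (SD, n = 3 each, adjusted p = 0.013 by edgeR), a call lost without liver 1 (0.052). The thrombospondin receptor genes Cd47 and Cd36 did not pass the test. Cd47 had a log2 fold change of -0.43 ± 0.19 (SE, adjusted p = 0.11, edgeR) and Cd36 of 2.58 ± 1.22 (SE, adjusted p = 0.16, edgeR). Thbs3 was tested and not called, and Thbs2 and Thbs4 had too few counts to be tested.

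The metalloproteinases among the members are Mmp12, a macrophage elastase; Mmp13, a collagenase; Mmp14, a membrane-bound enzyme that activates pro-Mmp2; and Mmp19. Mmp12 (chromosome 9, 7344381 to 7369499, plus strand) had 11.8, 2.47 and 17.8 CPM in liver 1, 2 and 3, against 0, 0 and 0.0671 CPM in blood 1, 2 and 3. The liver values spread widely, and the blood group held 1 count in all. The count ratio was 422, with a 95% exact interval of 75.4 to 16699.6, and the log2 fold change was 8.33 ± 1.1 (SE, adjusted p = 0.0011, edgeR). Without liver 3 the log2 fold change was 7.74, without liver 3 and blood 1 together 7.26, and by limma-voom 7.20, while without blood 3 no blood count was left to set a size.

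Mmp12 took the same order over the liver libraries as the Kupffer cell markers Clec4f, Timd4 and Vsig4. Fn1 and the monocyte marker F13a1 took this order too. Vsig4 had 6.66, 1.32 and 13.9 CPM in liver 1, 2 and 3, against 0.359, 0.0876 and 0.336 CPM in blood 1, 2 and 3. The whole list of 14 Kupffer cell and macrophage markers summed to 843, 549 and 1064 CPM in liver 1, 2 and 3, against 530.5, 412 and 328 CPM in blood 1, 2 and 3, and 442, 257 and 676 CPM against 190.4, 61.2 and 41.8 CPM without Csf1r, its most abundant gene. Clec4f had 0 counts in blood 2 and 3. The part of these cells in the Mmp12 difference was not tested.

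Mmp14 (chromosome 14, 54431612 to 54445364, plus strand) was even across the liver libraries. It had 7.83, 7.83 and 7.85 CPM in liver 1, 2 and 3, against 0.575, 0.263 and 0 CPM in blood 1, 2 and 3. Among macrophage markers in the same liver libraries, Clec4f ranged from 5.12 to 59.8 CPM, while Adgre1 was nearly even, at 72.0 to 74.9 CPM, and was called higher than in blood. The part of macrophages in the Mmp14 difference was not tested. The log2 fold change was 4.78 ± 0.75 (SE, adjusted p = 0.002, edgeR), with 5.91 without blood 1 and 4.13 without blood 3, and the count ratio was 28.7 with a 95% interval of 15.8 to 57.9.

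Mmp19 (chromosome 10, 128790910 to 128800824, plus strand) had 9.6, 7.53 and 17.4 CPM in liver 1, 2 and 3, against 6.76, 6.75 and 0.806 CPM in blood 1, 2 and 3. The groups did not overlap, but liver 2 lay close to blood 1 and 2, and the log2 fold change of 1.27 ± 0.69 (SE) did not pass the test (adjusted p = 0.19, edgeR). It was called only when genes with low counts were kept (adjusted p = 0.013), with adjusted p of 0.013 to 0.46 over the 16 alternatives. Mmp19 shares 789 exon bases with Tmem198b on the opposite strand, and whether counting used strand is not given in the sources used here. Tmem198b had 4.63 to 9.52 CPM in liver and 9.53 to 12.5 CPM in blood, so reads of the pair may be exchanged. Smaller overlaps with opposite-strand genes of few counts exist for Thbs1, Fn1 and Mmp12, of 208, 292 and 157 exon bases.

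Mmp13 (chromosome 9, 7272514 to 7283331, plus strand) had 1, 0 and 4 counts in liver 1, 2 and 3, against 0 counts in each blood library, and the 95% interval of the count ratio reached down to 0.776. Timp1 (chromosome X, 20870166 to 20874735, plus strand), the inhibitor among the members, had 0 counts in each liver library, against 0, 1 and 2 counts in blood 1, 2 and 3. At this depth 0 counts allow up to 0.196 CPM per liver library, and no fold is given since both groups lie under the floor of 3 counts.

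**Figure D3:**
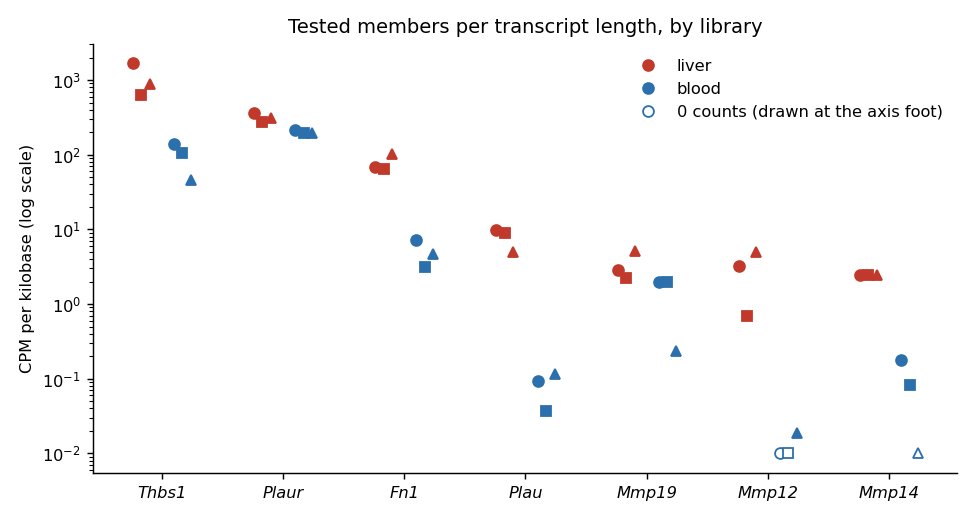
Level per kilobase of the longest annotated coding transcript (CPM per kilobase, logarithmic axis) of the 7 tested members, 1 point per library, liver in red left of blood in blue; open symbols at the foot of the axis are libraries with 0 counts. Thbs1 leads in the liver libraries and Plaur in the blood libraries, and the liver ranges of Mmp19, Mmp12 and Mmp14 overlap.

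On the per-kilobase scale the mean levels in liver ran from Thbs1 at 1065 ± 539 through Plaur at 315 ± 43.6, Fn1 at 79.0 ± 20.8 and Plau at 7.96 ± 2.63 to Mmp19 at 3.38 ± 1.52, Mmp12 at 2.96 ± 2.14 and Mmp14 at 2.42 ± 0.00292 CPM per kilobase (SD, n = 3). Plau and Mmp19 overlapped between libraries, and Mmp19, Mmp12 and Mmp14 overlapped with each other, so the order at the low end is not resolved. In blood, Plaur at 202 ± 11.9, Thbs1 at 97.6 ± 47.9, Fn1 at 5.05 ± 2.09 and Mmp19 at 1.40 ± 1.01 CPM per kilobase were followed by genes under 0.1 CPM per kilobase.

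The granule metalloproteinases went the other way. Of 19 metalloproteinase genes outside the members, 5 were tested, of which 3 were called lower, against 14.2% of all tested genes. These genes, like the members, were chosen with earlier results of these data known. The median log2 fold change of the 5 was -0.93, and the other 14 had too few counts. Mmp8 and Mmp9 are also among the 15 neutrophil markers, of which 11 were called lower in liver, with a median log2 fold change of -1.36. Whether the granule metalloproteinases fell apart from the other neutrophil markers was not tested. Mmp8, neutrophil collagenase, had 302, 201 and 173 CPM in liver 1, 2 and 3, against 774, 816 and 745 CPM in blood 1, 2 and 3, with a log2 fold change of -1.79 ± 0.24 (SE, adjusted p = 0.0011, edgeR). Mmp25, which encodes a membrane-anchored enzyme of neutrophils, had a log2 fold change of -1.47 ± 0.19 (SE, adjusted p = 0.00093, edgeR). Mmp9, gelatinase B, had 1049.5 to 2021 CPM in liver and 2112 to 3086 CPM in blood, with a log2 fold change of -0.93 ± 0.30 (SE, adjusted p = 0.040, edgeR), a call lost without liver 1 or 3 or blood 2 or 3, or without liver 3 and blood 1 together (0.087 to 0.13).

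Mmp2, the target of Mmp14, did not pass the test, with a log2 fold change of 0.66 ± 0.49 (SE, adjusted p = 0.33, edgeR). The 4 member metalloproteinases together made up 1.82%, 0.776% and 3.30% of the summed CPM of all 23 metalloproteinases in liver 1, 2 and 3, against 0.243%, 0.178% and 0.0220% in blood 1, 2 and 3.

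Among inhibitors and activators of metalloproteinases, a list of 10 with Timp1, the 4 tested genes were all called lower in liver. The share called lower over all tested genes was 14.2%, and the median log2 fold change of the 4 genes was -0.84. This list too was chosen with earlier results of these data known. Of 15 neutrophil markers, 11 were called lower as well, with a median log2 fold change of -1.36. Whether the 4 genes fell apart from the neutrophil markers was not tested. Timp2 had 94.6, 77.1 and 52.4 CPM in liver 1, 2 and 3, against 141, 164 and 145 CPM in blood 1, 2 and 3, and a log2 fold change of -1.01 ± 0.23 (SE, adjusted p = 0.0099, edgeR). Reck, which encodes a membrane-anchored inhibitor, had 1.89, 0.903 and 1.42 CPM in liver against 8.91, 5.52 and 5.91 CPM in blood, with a log2 fold change of -2.27 ± 0.45 (SE, adjusted p = 0.0051, edgeR). Furin, the protease that activates pro-Mmp14, had a log2 fold change of -0.67 ± 0.19 (SE, adjusted p = 0.025, edgeR), lost without liver 1 (0.091), blood 3 (0.069), or liver 3 and blood 1 together (0.076). The related Pcsk7 had -0.60 ± 0.20 (SE, adjusted p = 0.041, edgeR), a call lost under 7 of 16 alternatives. Timp3, with 41 counts in the liver group and 3 in the blood group, was not tested.

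**Figure D4:**
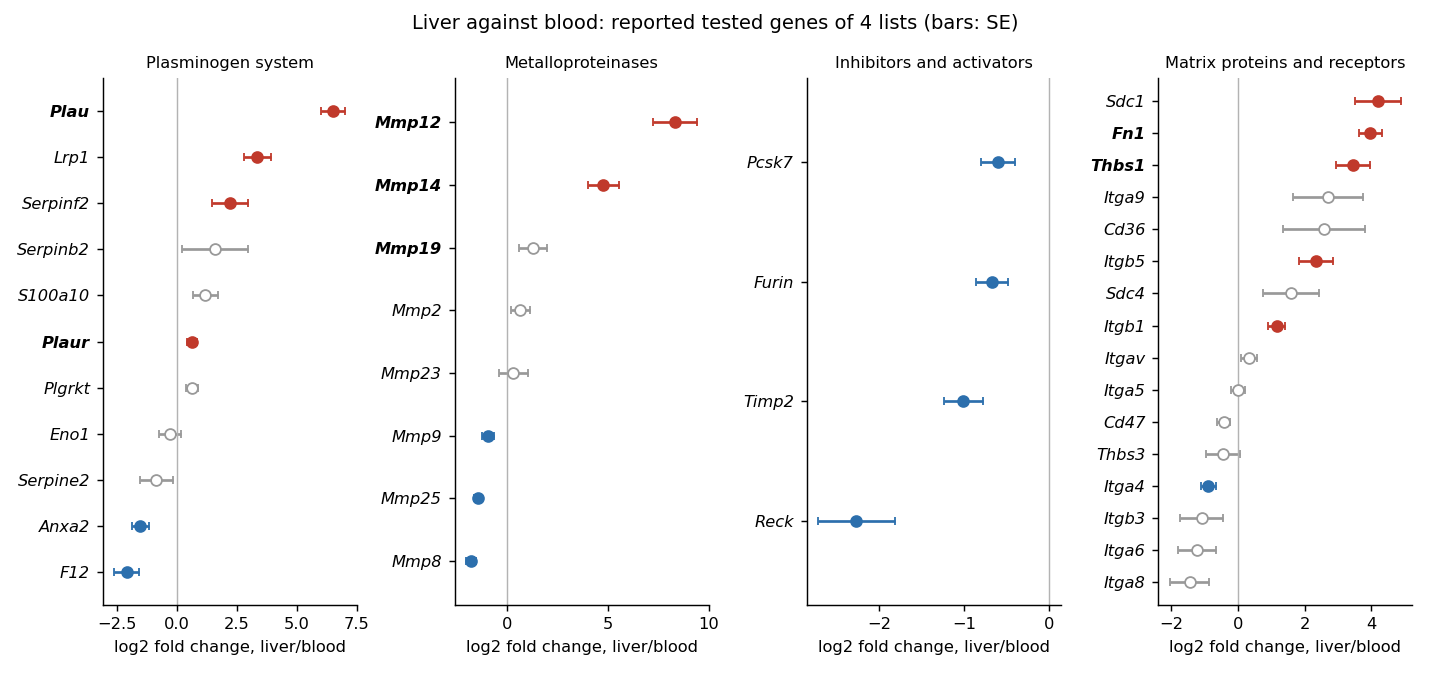
Log2 fold change of liver over blood with its SE for the reported tested genes of 4 lists, 1 panel per list with its own linear axis; members in bold, red filled points called higher, blue filled points called lower, grey open points not called. Mmp12 and Mmp14 lie right of 0 while Mmp9, Mmp25 and Mmp8 lie left of it, and the 4 tested inhibitors and activators lie left of 0.

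The genes whose log2 CPM, centred over the 6 libraries, lay nearest to a member by Euclidean distance were taken for Plaur, Thbs1 and Fn1, with 3 each. For Plaur these included Faf1 and Rps2, at distances of 0.112 and 0.172. For Thbs1 they were Pkdcc, Lonrf3 and Prdm1, at 0.196 to 0.680, where Prdm1 encodes a transcriptional repressor and had 50.3, 33.8 and 36.7 CPM in liver 1, 2 and 3, against 4.38, 3.59 and 1.41 CPM in blood 1, 2 and 3. Those of Fn1 were Abcb1a, Gas2l3 and Mx2, at 0.581 to 0.628. All 6 libraries share the split into liver and blood, so nearness reflects mostly a like difference between the groups, and Pkdcc, Abcb1a and Mx2 had under 6 CPM in every library.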

How the data were processed

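RNA of 3 liver and 3 blood libraries was read as paired ends from stranded total-RNA libraries, per the labels' protocols. The authors deposited expected counts per gene, for which the submitters' processing notes name STAR, RSEM, limma, FastQC 0.11.5 and the build GRCm38; whether counting used strand is not given in the sources used here. Expected counts were rounded and filtered (filterByExpr, minimum count 10, total 15). They were scaled by TMM and tested with edgeR 4.0.16 in R 4.3.3 (robust quasi-likelihood F test, Benjamini-Hochberg over 13458 genes); SE came from the F statistic. The test was checked on simulated data. Coordinates and lengths came from GENCODE release M21, which matched 98.9% of rows by identifier. DESeq2 1.42.0, limma-voom (limma 3.58.1) and other settings served as alternatives. Replicates of a group differed beyond counting noise (chi-square per degree of freedom 52.1 to 79). Members, lists and motifs were chosen with earlier results of these data known. Named genes are the 9 members, tested genes of the 4 pathway lists, the first 3 markers per cell type and 3 nearest genes for Plaur, Thbs1 and Fn1. Some genes that this rule names are not reported here. Nr4a1, Csf1r, Acta2, Tmem198b, Adgre1, Spn, Cd300e and Ace were added after their values were seen.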

Additional observations from a re-analysis of the deposited data

How the results depend on the processing

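Under 16 alternatives all 7 tested members kept the sign of their log2 fold change. Plau, Thbs1, Fn1, Mmp12 and Mmp14 were called higher under each. For Plau, Mmp12 and Mmp14 this carries little by itself, since 88.4% of tested genes with at most 11 blood counts were called higher in the main fit. Plaur lost its call under 5, all of which left out libraries, and Mmp19 gained one when genes with low counts were kept. The number of members called higher was 5 to 7, with 5 to 6 when single libraries were left out. Over all genes, 1732 to 1993 were called higher and 1323 to 1626 lower without a single library, and 1195 lower without liver 3 and blood 1 together. Those 2 libraries left out, the plasminogen system had 4 called genes and the inhibitors and activators 2. The 4 lists in turn had 4 to 7, 4 to 5, 3 to 4 and 5 to 8 called genes without a single library (plasminogen system, metalloproteinases, inhibitors and activators, matrix proteins and receptors); fewer samples enter these fits. Sample numbers are shared between groups, and deviations of same-numbered libraries correlated at 0.0541, 0.156 and 0.0225. Liver 1 and liver 2 correlated best with the blood library of the same number, but liver 3 with blood 1 (0.12). Such low values do not settle whether libraries are paired, so pairing was not assumed. With a replicate block 2322 genes were called higher and 2312 lower, and 6 members were called higher. Without a low-count filter the median over all genes was 0.424 against 0.041 (log2). Mmp13 and Timp1 were tested only without that filter and were not called (adjusted p = 0.31 and 0.34, edgeR). Depth limits both, and the size of the differences of Plau, Mmp12 and Mmp14.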
